A study of Arabidopsis thaliana with 4 samples.

Results

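Genes whose only AGAMOUS (AG) site lay within the gene itself were drawn from a target table of 1958 Arabidopsis thaliana genes. A gene was taken when its highest Poisson score inside the gene was above 0 and its scores in the other 4 regions were all 0, these being 3 successive 1000 bp bins upstream of the 5' end and the first 1000 bp after the 3' end. The score is the authors' own and a higher value marks a stronger peak. This gave 248 genes, or 12.7% of all target genes. The members were thus chosen by the measured scores, which are given as a description with no test. The tables hold 1 value per peak or gene for the whole series, so neither a spread between libraries nor the sequencing depth can be given.

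The data come from chromatin immunoprecipitation followed by sequencing (ChIP-seq), in which DNA bound by a protein is recovered with an antibody and sequenced. Both groups carried the AP1-GR transgene, driven by the 35S promoter, in an ap1 cal mutant of the Ler-0 background, and were treated with 10 µM dexamethasone at about 4 weeks of age. Dexamethasone activates the AP1-GR fusion and starts flower formation in many meristems together. The inflorescences were taken 4 days later, at about floral stage 4 to 5. In the first group the plants also carried AG-GFP, and the negative control plants had no tagged protein. An anti-GFP antibody was used in both, with 2 libraries in each group. The labels do not say whether the libraries of a group came from separate plants.

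AG is a MADS-domain transcription factor that specifies stamens and carpels and ends the activity of the floral meristem. MADS-domain proteins bind DNA as dimers and larger complexes, at short sequences known as CArG boxes. Regulatory elements in plants are often found upstream of genes but also within them, and AG itself is a textbook case, since a large intron holds much of the DNA that controls its expression.

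A site inside the gene was listed for 299 target genes (15.3%), and in 51 of these a site in another region was listed too. AG and AP1 were among the 51. AG had a site of 12585.03 inside the gene and one of 735.51 at 1000 to 2000 bp upstream, and AP1 had one of 3529.42 inside and one of 1351.75 at 2000 to 3000 bp upstream. Both were therefore outside the group of 248. The members just inside the rule were AT1G67900, AT2G41000 and HB27 (AT5G42780), with inside scores of 38.14, 40.05 and 40.54. The genes just outside it had a second site of low score. AT2G23171 had 329.32 inside and 47.91 elsewhere, and AT1G45163 and AT1G45165 each had 72.68 inside and 50.77 elsewhere.

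The inside scores ran from 38.14 to 4142.8, with a median of 131.08 (quartiles 70.47 and 249.34). The highest score of the other 1710 target genes had a median of 148.12 (quartiles 81.04 and 289.21). A score of 500 or more was reached by 24 members (9.68%) and by 210 other target genes (12.3%). The median of all 1421 peaks, 139.67, was reached by 114 members (46.0%) and 898 of the other targets (52.5%). Genes with a site in 1 region only had medians of 134.67 within 1000 bp upstream, 144.27 at 1000 to 2000 bp, 148.96 at 2000 to 3000 bp and 133.69 downstream. The medians of the 5 single-region groups thus lay between 131.08 and 148.96, while the quartiles within each spanned more than a doubling of the score. The quartile ranges of all 5 overlapped.

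**Figure D1:**
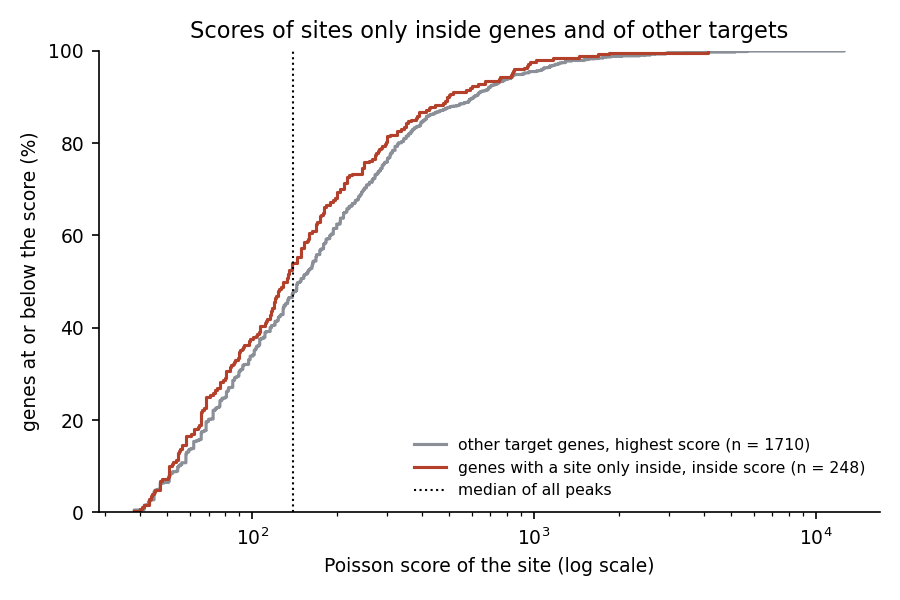
Cumulative share of genes (%) against the Poisson score of the site (log scale), for the 248 genes with a site only inside the gene (inside score) and the 1710 other target genes (highest score). The dotted line is the median of all peaks, 139.67; the curve of the inside-only genes lies slightly to the left, with 46.0% of them at or above that line against 52.5% of the others.

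The highest inside scores belonged to genes of unlike function. The first was AT3G14220, annotated as a GDSL-motif lipase, with 4142.8 for a peak on chromosome 3 from 4732815 to 4733273 (TAIR10). AT1G40104, which has no annotation in the table, followed with 1842.74 on chromosome 1 from 15081961 to 15082300. It had further peaks of 1284.16 and 888.81 within its span. The repeat content of this region was not analysed. UMAMIT30 (AT4G01450), of the nodulin MtN21 transporter family, had 1687.07 on chromosome 4 from 609049 to 609404. IDD4 (AT2G02080), a zinc finger transcription factor gene of the INDETERMINATE-domain family, had 1441.85 on chromosome 2 from 519439 to 520095. The highest peak of each was listed for no other target gene.

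Among the next genes by score, SPL8, TGA10 and SAP act in anthers or flowers. They are named for their rank, and no enrichment is meant. Of the 9 targets in the list of stamen and anther genes given below, 1 was a member, beside 12.7% of all target genes. SPL8 (AT1G02065), an SBP-box gene that acts in the formation of pollen and egg precursor cells, had 1163.67 on chromosome 1 from 365280 to 365734. The same peak lay 2000 to 3000 bp upstream of AT1G02060. TGA10 (AT5G06839), a bZIP gene of anther development, had 965.18 on chromosome 5 from 2123523 to 2124323. At 801 bp this was the widest peak of the group, and its position was 2754 bp from the nearer end of a gene of 5986 bp. SAP (STERILE APETALA, AT5G35770), needed for normal inflorescences and flowers, had 836.04 on chromosome 5 from 13939275 to 13939515 and further peaks of 278.78 and 254.22 within the gene. TGA10 and SAP were the only targets listed for their highest peaks.

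Hormone pathway genes were also among the 20 highest scores. They were grouped after their scores were seen, and no enrichment is meant. Of the 9 targets in the hormone list given below, 2 were members, GID1C among them, beside 12.7% of all target genes. GID1C (AT5G27320), which encodes a gibberellin receptor, had 939.57 on chromosome 5 from 9628962 to 9629326, with the peak position 162 bp from an end of the gene. EIN2 (AT5G03280), a central component of ethylene signalling, had 922.88 on chromosome 5 from 792620 to 793056. That peak was also listed within 1000 bp upstream of AT5G03285. JAZ9 (TIFY7, AT1G70700), of the family of jasmonate response repressors, had 669.41 on chromosome 1 from 26654646 to 26654939. AUX1 (AT2G38120), an auxin influx carrier gene, had 604.22 on chromosome 2 from 15974196 to 15974466, at 1483 bp from the nearer end. The GID1C, JAZ9 and AUX1 peaks were assigned to no other target.

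The other 9 of the 20 scored between 630.5 and 1019.37. They included SINAT2 (AT3G58040), of the seven-in-absentia family of ubiquitin ligases, with 844.33, and TT7 (AT5G07990), the flavonoid 3' hydroxylase gene, with 759.68. AT5G58900, annotated as a MYB transcription factor gene, had 950.05 and sks17 (AT5G66920), related to the cell wall gene SKU5, had 669.41. AT5G06130 is annotated as related to DnaJ chaperones and had 826.21. AT1G19330 (1019.37), AT1G22460 (750.79) and AT3G11850 (630.5) are annotated only by likeness to unknown proteins. AT4G16550, annotated as related to heat shock proteins, had 848.52, but its peak lay 1689 bp outside the RefSeq span of the gene.

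**Figure D2:**
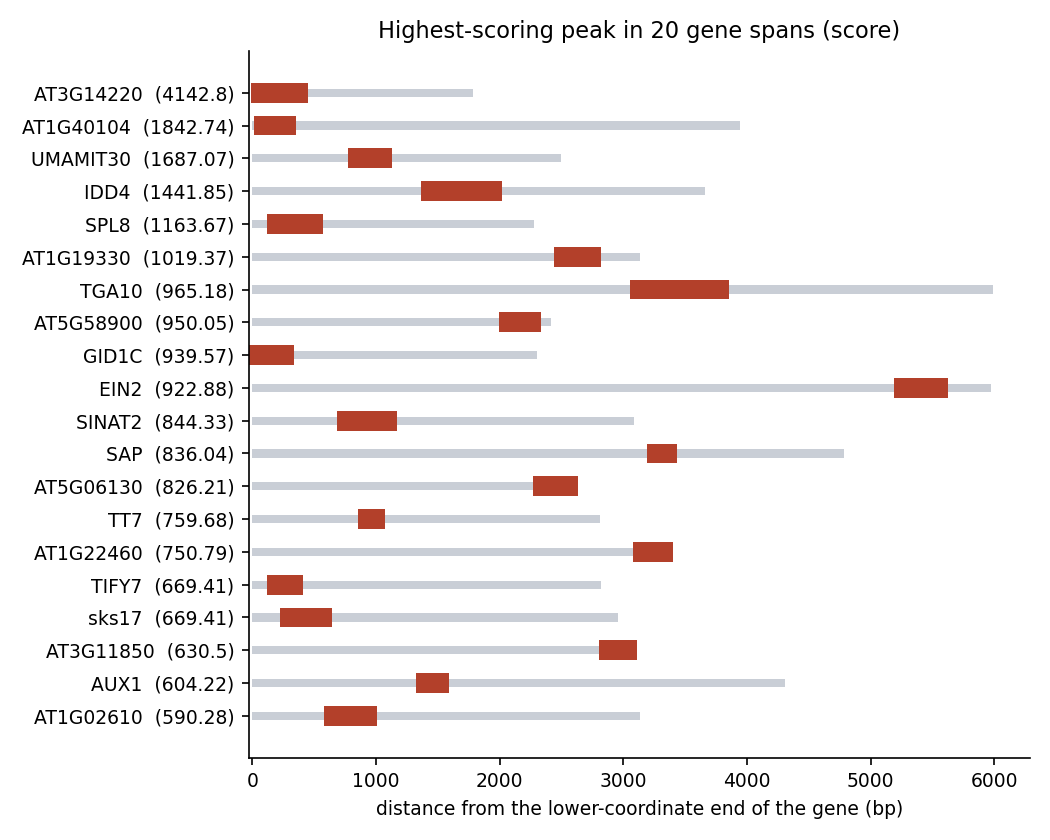
Place of the highest-scoring peak (red) in the gene span (grey) for the 20 highest-scoring genes whose peak position falls within their RefSeq span, in bp from the lower-coordinate end of the gene; the strand is not shown. Some peaks lie at an end of the gene, as in GID1C (162 bp from the nearer end), and others deep within it, as in TGA10 (2754 bp).

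Each score was traced to a peak of the same score within 3000 bp of the gene, for the 240 members found in the RefSeq table. These led to 238 distinct peaks, 16.7% of the list, as a pair of peaks each lay within overlapping genes. One was shared by TET2 (AT2G19580), a tetraspanin gene, and AT2G19582, annotated as a potential antisense gene to it. The other was shared by TCP9 (AT2G45680), a TCP transcription factor gene, and AT2G45685. The peak position fell inside the RefSeq span for 237 members, and the whole peak did for 189 of these (79.7%). For AT1G10220, AT1G77280 and AT4G16550 it fell 684 to 1689 bp outside. A further peak position lay within the span of 6 members, AT1G40104 and SAP with 3 peaks each and AT1G74440, CBR, AT1G53860 and ULT1 with 2 each.

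The sites were spread along the genes, with many close to an end. The peak position was a median of 322 bp (quartiles 137 and 872 bp) from the nearer end, or 13.8% of the gene length. It was within 250 bp of an end in 102 of 237 members (43.0%) and over 1000 bp from both ends in 46 (19.4%). The middle 50% of the gene held the position in 81 members (34.2%). The median score was 128.73 for sites within 250 bp of an end, 135.33 for those at 250 to 1000 bp and 123.29 for those further in. HMA4 (AT2G19110), a zinc transport gene, had one of the deepest sites, 3071 bp from the nearer end, with a score of 168.29. The strand of the genes and the place of exons, introns and UTRs were not analysed here, so a 5' end cannot be told from a 3' end in these distances.

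What counts as inside depends on the gene model. By the RefSeq spans, 449 peak positions fell inside protein-coding genes. Of the peak and gene pairs this gave, 278 were the highest site inside the gene in the authors' deposited table and 13 were lower peaks in genes with a higher one inside. A further 125 were listed there as within 1000 bp upstream and 29 as within 1000 bp downstream. Those lay a median of 82 and 117 bp from the nearer end of the RefSeq span, against 374 bp for the 278.

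Longer genes had their only site inside more often. The members had a median length of 2790.5 bp (quartiles 2093.75 and 3813.75 bp), against 2154 bp (1424.75 and 3038.5 bp) for the other target genes and 2078 bp for all protein-coding genes. Among protein-coding genes only, the medians were 2802.5 bp for members and 2223 bp for other targets. Of targets of all gene types under 1000 bp, 13 of 247 (5.26%) were members, and of those from 1000 to under 2000 bp, 41 of 551 (7.44%). These ranges include the RNA gene targets, whose median length was 113.5 bp and of which 5.0% were members. The shares were 14.9% and 15.1% in the next length ranges and 55 of 241 (22.8%) in genes of 4000 bp or more. Length and inside score were nearly unrelated across members (Spearman's rho 0.07, n = 240, genes that come from the same peak list).

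**Figure D3:**
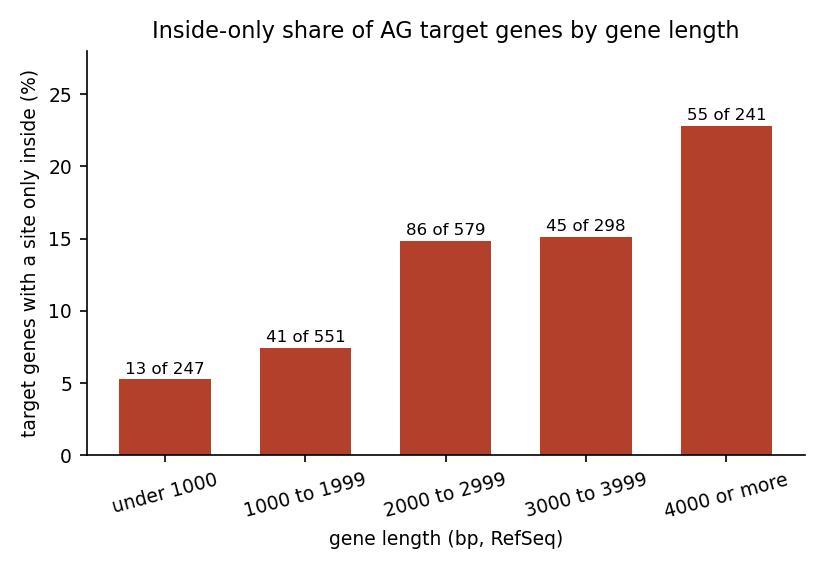
Share of AG target genes whose only site lay inside the gene (%), by gene length in bp from the RefSeq table, with the counts above each bar. The bars run from 5.26% in genes under 1000 bp to 22.8% in genes of 4000 bp or more.

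Peaks at these genes had nearly the same width as the rest. Their median was 242.5 bp (quartiles 158 and 342.75 bp, n = 238), against 233 bp (152 and 335.5 bp, n = 1183) for the other peaks. The widest of the 238 was 801 bp, and 27 of the 1183 other peaks were wider. As 801 bp is the maximum of the group itself, that count is a description only. Of all 1421 peaks 4 were over 2000 bp, among them those at AG and AP1, and none of the 4 belonged to the group. With so few wide peaks, their absence from the group is not read as a difference. After TGA10, the widest were at AT5G57130 (742 bp, score 179.13) and AT2G07981 (681 bp, score 274.56). Width and score were related to a like degree in both sets (Spearman's rho 0.71 in each, peaks of a single list).

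**Figure D4:**
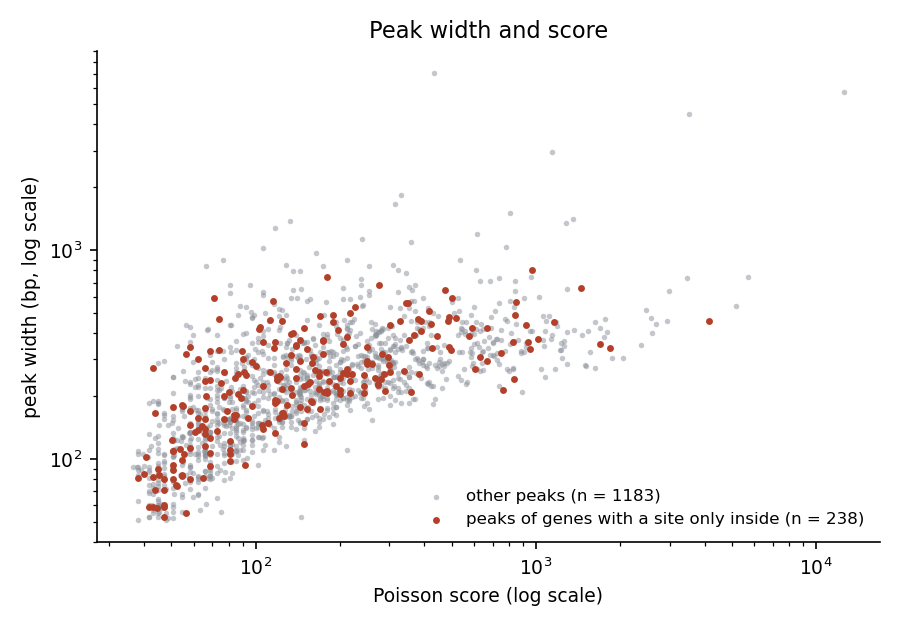
Width (bp) against Poisson score of each peak, both on log scales, for the 238 peaks of genes with a site only inside (red) and the 1183 other peaks (grey). The red points lie within the grey cloud, and none is wider than 801 bp.

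A site inside one gene was often also listed for a neighbour. Of the 240 linked members, 140 (58.3%) had a peak that was listed for at least 1 other target gene, and for 113 (47.1%) it lay in an upstream region of that gene. The corresponding share among the other linked targets, by their highest peak, was 1263 of 1675 (75.4%). The other listings were ranked as inside first, then upstream from the nearest bin outwards, then downstream, whatever the distance. By this order the first was inside another target for 6 members, within 1000 bp upstream for 38 and downstream for 22. Those 22 had no inside or upstream listing, and some members counted as upstream had a downstream listing too. Of the 24 members at 500 or more, 14 were the only gene listed for their peak. Genes absent from the RefSeq table, 8 members among them, could not be linked, so sharing with them was missed. AT1G70780, for which no other gene was found, had the same score of 68.62 as the unlinked member AT1G70782. Where a peak is said to be listed for no other target, only linked genes are meant. The gene on which a shared site acts cannot be read from these tables.

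By keyword in the first clause of the annotation, 38 members (15.3%) were transcription regulators, which made up 13.0% of all target genes. Of the 255 target genes in this class, 14.9% had their only site inside (95% exact Clopper-Pearson interval 10.8 to 19.9%), beside 12.7% of all target genes. Their scores ran from 40.54 to 1441.85, with a median of 138.61. Beside IDD4, SPL8, TGA10 and AT5G58900, the highest was at ABI5 (AT2G36270), a bZIP gene of abscisic acid response, with 490.67. Some regulators, such as SHP1 and CUC3, fell outside the class since the first clause of their annotation names no family.

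The shares were higher in some classes of enzymes and transporters. Of 68 target genes of lipid or secondary metabolism, 19 (27.9%, interval 17.7 to 40.1%) had their only site inside. Beside AT3G14220 and TT7 they included CYP81F3 (490.67), a cytochrome P450 gene, LACS6 (216.69), a peroxisomal acyl-CoA synthetase gene, and FLS1 (188.32), a flavonol synthase gene. Of 47 transporter or channel genes, 11 (23.4%, interval 12.3 to 38.0%) had only an inside site, among them UMAMIT30, AUX1 and the sugar transporter gene SWEET2 (278.78). The interval for transporters or channels includes the 12.7% of all target genes. The target genes of the lipid or secondary metabolism class had a median length of 2501.5 bp and its members 2451 bp. For transporters or channels these were 3056 and 4115 bp, beside 2230.5 bp for all target genes and 2790.5 bp for all members. The part of length in these shares was not tested. With the whole annotation text read for keywords, the shares were 22.4% of 98 genes and 16.4% of 61.

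The share ran from 5.0% to 33.3% in the remaining classes, the highest resting on 3 target genes. It was 9 of 48 (18.8%) for cell wall genes, with sks17 (669.41) and XTH28 (517.43), a xyloglucan-modifying enzyme gene, in the lead. Among protein kinase or receptor genes it was 15 of 105 (14.3%), led by GID1C, AT1G07650 (444.84) and AT4G23050 (350.74). Genes of RNA binding or translation had 11 of 74 (14.9%), with PUM9 (502.79), a Pumilio RNA-binding protein gene, the highest. For the ubiquitin pathway it was 7 of 82 (8.54%), with SINAT2, AT1G02610 (590.28) and SKIP5 (357.32) at the top. Of 80 RNA genes 4 (5.0%) had only an inside site. All 4 were among the 15 potential antisense genes (26.7%), and none of 32 tRNA and 29 microRNA genes was a member. The median length was 3058 bp for the 4 members and 113.5 bp over the RNA gene targets. Genes whose first clause matched the keywords for unknown or hypothetical proteins had 37 of 322 (11.5%). This class is one of wording and not of function, since JAZ9, PYR1, LOG3 and SKU5 fell in it. Genes with no annotation had 17 of 97 (17.5%) and genes in no named class 77 of 761 (10.1%). The smallest classes were disease resistance genes, with 2 of 16 (12.5%), and transposable elements or pseudogenes, with 1 of 3 (33.3%). The classes were compared by their counts only.

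**Figure D5:**
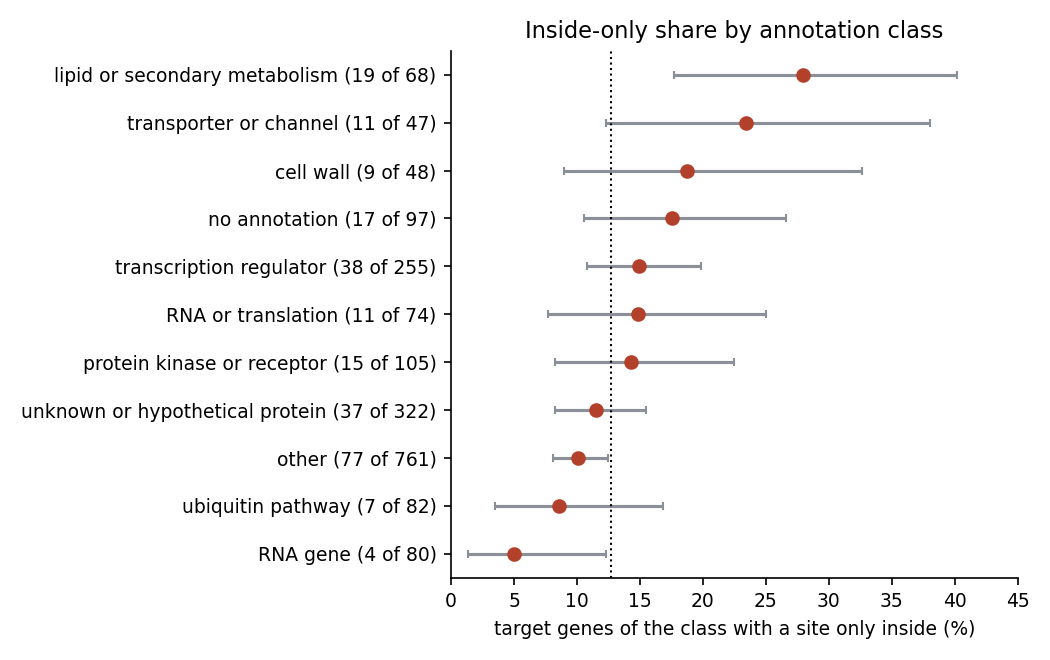
Share of the target genes of each annotation class whose only site lay inside the gene (%), with 95% exact Clopper-Pearson intervals that cover counting error only; classes with at least 40 target genes are shown. The dotted line is the 12.7% of all target genes, and the points run from 5.0% for RNA genes to 27.9% for lipid or secondary metabolism.

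Known regulators of flowers, leaves and hormone pathways were counted by list. Of all protein-coding genes 6.62% were targets and 0.845% had their only site inside, and of all target genes 12.7% had their only site inside. Of 13 floral organ identity genes 9 were targets, and SHP1 alone had only an inside site. SHP1 (AT3G58780), a close relative of AG with a role in fruit opening, had a score of 65.95 at 1861 bp from the nearer end of the gene, on chromosome 3 from 21740580 to 21740711. Of 31 genes of floral meristems and flowering time, 19 were targets and 4 were members. These were FLM (MAF1, AT1G77080), a MADS-box repressor of flowering, with 272.58, CRY2 (AT1G04400), a blue light receptor gene, with 153.26, ULT1 (AT4G28190), which restrains meristem activity, with 81.04, and AGL24 (AT4G24540), a MADS-box promoter of flowering, with 58.19. FLM and CRY2 were above the median peak and the others below it. The peak of each of these 4 was also listed for a neighbouring target. It lay upstream of the neighbour for FLM and AGL24 and downstream of it for CRY2 and ULT1.

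Of 20 stamen and anther genes 9 were targets and TGA10 was the only member. Of 20 carpel and ovule genes 7 were targets and none had its only site inside, although ETT, an auxin response factor gene, had a site of 97.13 there beside one of 678.47 upstream. Of 17 leaf and organ growth genes 12 were targets, with KAN2 (AT1G32240), which promotes the lower leaf side, as the single member at 58.19. Of 26 hormone genes 9 were targets, and GID1C and the DELLA repressor gene GAI (AT1G14920, 86.64) were members. GID1C and GAI encode partners in one pathway, in which gibberellin causes the receptor to bind the repressor. Their relatives in the list were not members. GID1B and RGL2 had sites only in other regions, and GID1A, RGA, RGL1 and RGL3 were not targets.

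The lists that follow were drawn up after the values had been seen, so their counts describe these genes and support nothing. Of 18 genes of the flowering-time MADS-box group 11 were targets and 4 were members, namely AGL16 (281.53), FLM (272.58), MAF2 (93.86) and AGL24 (58.19). Among the other targets of this group, SVP and SOC1 had inside sites of 722.17 and 143.81 with higher ones upstream. AGL19 had 98.32 inside and a lower site of 85.33 within 1000 bp upstream. The peak at AGL16 was also listed within 1000 bp downstream of AT3G57220. Of 18 light signalling genes 6 were targets and 4 were members. These were the growth-promoting bHLH factor genes PIF4 (AT2G43010, 351.68) and PIF5 (AT3G59060, 169.43), the UV-B receptor gene UVR8 (AT5G63860, 301.85) and CRY2. The peaks at PIF4 and UVR8 were listed for no other target, whereas that at PIF5 also lay 2000 to 3000 bp upstream of neighbouring genes.

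Of 16 abscisic acid genes 6 were targets and 3 were members. ABI5 scored 490.67, CYP707A1, which breaks the hormone down, 97.13 and the receptor gene PYR1 47.19. The peak at PYR1 also lay 2000 to 3000 bp upstream of AT4G17860. Of 20 ethylene and jasmonate signalling genes 6 were targets, with EIN2, JAZ9 and the jasmonate-conjugating enzyme gene JAR1 (123.84) as members. Of 16 genes of stomatal development 6 were targets and 3 were members. The signalling peptide gene CHAL (EPFL6) had 426.91, the bHLH gene bHLH071 389.77 and MUTE, which ends the divisions of stomatal precursors, 58.19. The peaks at CHAL and MUTE were each also listed upstream of a neighbouring target. Among 8 AINTEGUMENTA-like genes, AIL6 (PLT3) had 301.85 and AIL5 (PLT5) 76.82, each as the only target of its peak. Among 17 SBP-box genes, SPL8 and SPL2 (389.8) were members and both other targets had upstream sites.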

How the data were processed

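ChIP-seq libraries of AG-GFP and negative control inflorescences, 2 per group, were summarised by the authors in 1 peak list and 1 target table for the series. The submitters' processing notes name the TAIR10 build. Which aligner, peak caller and threshold were used, and how replicates were combined, is not given in the sources used here. The deposited score is a Poisson score per peak, per the file headers. The headers of the score and position columns were exchanged in the peak list, since the values under the score header lay within their peak for all 1421 peaks, so columns were read by their values. Sequencing depth is unknown.

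Genes with a site only inside were selected from the authors' score columns. Each score was linked to the nearest peak with the same score (tolerance 0.006) within 3000 bp of the gene span in a RefSeq table (assembly TAIR10.1), which held 240 of the 248 genes. In simulated data with each peak placed inside a RefSeq span, the link step returned the right peak for 240 of 240 genes. Each gene was given the exact score of its peak, so recovery was nearly certain by design. Upstream and downstream sites, peaks outside the span and genes missing from the RefSeq table were not simulated, so that result does not cover them. Spans gave lengths and distances only. Annotation classes were read by keyword from the text before the first semicolon, with the first matching class taken. Work was done in Python 3.11.15, pandas 2.3.3, numpy 2.4.6, scipy 1.17.1 and matplotlib 3.10.9.

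The members and lists were chosen with earlier results of these data known. By rule the text names the 20 highest-scoring members, members of 6 lists, the 3 members and genes nearest the threshold, the 3 widest peaks and up to 3 genes per class; others named were chosen after their values were seen. No test was made, since the tables hold no value per library and the scores chose the members. Alternatives tried were a minimum at the median peak score, other region rules, distinct peaks, peaks without the broad ones, the whole annotation text and the middle of the peak.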

Additional observations from a re-analysis of the deposited data

How the results depend on the processing

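No paired analysis was possible because the deposited tables carry no value per library, and for the same reason no library could be left out. With sites at or above the median peak score only, 126 genes in place of 248 had a site only inside. Of these, 114 were among the 248 and 12 had a lower site in another region, which this minimum removes. The member peaks at or above that score had a median width of 313 bp, in place of 242.5 bp. The other counts ran from 238 distinct peaks to 299 genes with any site inside, with 263 when the downstream region was left free. The median score, gene length, place along the gene, share of shared peaks and share of transcription regulators stayed within the 95% interval of their main value under the alternatives run. With the whole annotation text, the share of members in no named class was 20.6% in place of 31.0%, and with the minimum score the share of disease resistance genes and of transposable elements or pseudogenes was 0%. Intervals cover counting error only, and genes that share a peak are not independent. Without a value per library, no site can be called weak or strong beyond its rank in this list.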

Other observations

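Members outside the lists included further regulators of development, named here after their values were seen. CUC3 (AT1G76420), a NAC gene of organ boundaries, had an inside score of 152.42 with the peak position 114 bp from an end of the gene. TRY (AT5G53200), a small MYB gene that restrains trichomes, had 54.43. LOG3 (AT2G37210), of a family of cytokinin-activating enzymes, had 345.06, and ABCB19 (AT3G28860), an auxin transporter gene, had 124.86 at 2097 bp from the nearer end of a gene of 7574 bp. GA2OX4 (AT1G47990), which encodes a gibberellin-inactivating enzyme, had 138.72.

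Of the 240 members in the RefSeq table, 8 are classed there as long noncoding RNA genes, and the peak of each was also listed for a neighbouring target. Sharing of a peak was common in general, at 58.3% of all linked members and 75.4% of the other linked targets. The number of long noncoding RNA genes among all target genes was not counted. AT1G71828 had 143.81 for a peak within 1000 bp upstream of SERK1, a receptor kinase gene of anther development. AT3G63445 had 272.58 for a peak 1000 to 2000 bp upstream of CKX6, a cytokinin oxidase gene. AT1G33415, with 90.5, had its peak position 3021 bp from the nearer end of the gene and within 1000 bp upstream of AT1G33420. The peaks of AT1G71828, AT3G63445 and AT1G33415 were also listed within 1000 bp downstream of SEC6, TRM5 and AT1G33430, respectively. The other long noncoding RNA genes scored between 54.43 and 327.59.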
